A study of Mus musculus with 8 samples.

Results

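The regions described here are 707 stretches of mouse chromosomes 1 to 19 at which all 4 deposited peak lists of an N4-acetylcytidine (ac4C) experiment placed a peak. They were chosen by presence alone. Peaks from any of the lists were joined into 1 region wherever they shared 1 or more bases on the same chromosome and strand, and a region was kept if each list had at least 1 peak in it. This gave 707 of 73417 regions on these chromosomes (0.963%), of 75389 regions on all chromosomes. Another 50754 regions (69.1%) were held by 1 list, 17363 by 2 lists and 4593 by 3 lists.

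ac4C is a cytidine that carries an acetyl group on its base. NAT10, an RNA acetyltransferase, writes it on ribosomal and transfer RNA and has been reported to write it on mRNA as well. Osteoclasts, the multinucleate cells that resorb bone, form from monocytes and macrophages under the cytokines M-CSF and RANKL. In acRIP-seq, RNA fragments are pulled down with an ac4C antibody and sequenced beside an input portion (here after fragmentation to 100 to 200 nucleotides), so that a peak marks a stretch with more antibody-bound fragments than input. 

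The cells were mouse bone marrow-derived monocytes, kept for 3 days with RANKL, from wild-type (WT) mice or from Nat10 conditional knockout (CKO) animals. There were 8 samples, 4 IP and 4 input, and each peak list stands for 1 IP library against its input: WT 1, WT 2, CKO 1 and CKO 2. The labels name neither the Cre line nor the mouse strain or age, and nothing says whether lists of a genotype came from separate mice or cultures, so the spread behind each p-value is that between lists and may be technical. The lists held 24249 to 28087 peaks and no read totals, so the depth is unknown and an absent peak cannot be told from one that was not sampled. WT 2 stood apart in peak shape: 6.51% of its peaks were exactly 200 bases wide and 22.2% were wider, against 24.0% to 24.4% and 9.55% to 10.6% in the other lists. Widths, cores and shared edges are therefore also given without WT 2, for the 1921 regions of all 3 other lists, a larger set than the members; the other values include WT 2. The files name no genes, and no sequence or annotation of their build, mm39, was used here. The regions are named by position, counted from 1, and the labelled cell type, the loss of Nat10 and the genes behind the regions were not analysed here.

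The members were mostly simple pile-ups of 4 peaks. Of the 707 members, 637 (90.1%) held exactly 1 peak from each list, 56 held 5 peaks and 14 held 6 or more, with 10 as the highest number. At least 1 base was covered by all 4 lists in 581 members (82.2%). In the other 126 (17.8%) the lists were joined only by chains of overlapping peaks. Where a common core existed, its median length was 65 bases (25th to 75th percentile 27 to 123), or 38.1% of the member. Without WT 2, 89.1% of the 1921 regions had a core common to the 3 lists, with a median of 70 bases. Without WT 1, CKO 1 or CKO 2 the shares were 92.4%, 91.7% and 92.4%. The share was thus higher with 3 lists than with 4 whichever list was left out. The members thus comprise stretches that every list marked and stretches that are held together by neighbours.

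The rule's threshold is 1 shared base, and few members lay near it. In 658 members (93.1%) all 4 lists would still be joined if 10 shared bases were required, and in 447 (63.2%) if 50 were. The loosest members hung on 1 base. At chr19:4152673-4152887 on the plus strand the peaks were 215 (WT 1), 130 (WT 2), 183 (CKO 1) and 1 base wide (CKO 2). At chr5:31314166-31315111, minus strand, and chr12:73992326-73992715, plus strand, no base was common to the 4 lists either. Just outside stood chr10:116321855-116322191, minus strand, with peaks of WT 1, WT 2 and CKO 1 and a CKO 2 peak that touched it with 0 bases between. The next were chr13:21374073-21374140, plus strand, where the nearest CKO 1 peak was 3 bases away, and chr11:95662550-95662880, plus strand, with CKO 2 at 4 bases. Such near misses were rare: among the 4593 regions of 3 lists, the missing list had a peak within 100 bases in 70 (1.52%) and its nearest peak was 4148 bases away at the median. WT 1 was the missing list in 1029 of them, WT 2 in 1260, CKO 1 in 1035 and CKO 2 in 1269, so the 2 lists with fewest peaks, WT 2 and CKO 2, were missing most often.

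All 19 chromosomes and both strands carried members. The share of a chromosome's regions that were members ran from 0.615% on chromosome 13 (17 of 2763, 95% Wilson interval 0.385% to 0.983%) to 1.21% on chromosome 3 (42 of 3485, 0.893% to 1.62%). These intervals overlap, and they cover counting error over regions only. Chromosome 11 held the most members, 68 of 6187 regions (1.10%). On the plus strand 351 of 37325 regions were members (0.940%) and on the minus strand 356 of 36092 (0.986%).

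The authors' peak score was used only as a rank within its own list, given as a percentile in which 100 is the highest score. The members' best peaks ranked above the middle of each list on average but covered the whole scale. Their median percentile was 61.9 in WT 1, 71.3 in WT 2, 65.4 in CKO 1 and 56.4 in CKO 2. The 10th percentile of the members lay between 15.6 and 23.2 in the 4 lists and the 90th between 94.5 and 98.5. Taken over all peaks in members, and not the best alone, the medians were 61.4, 70.5, 64.6 and 56.2 in the same order. All peaks in regions of 1 list had median percentiles of 46.0, 40.4, 46.4 and 47.6. A higher score makes a peak more likely to be listed at all, so these values describe the choice of members and carry no test. Membership was still uncommon among strong peaks: among peaks above percentile 80 4.06% to 5.59% of a list's peaks lay in members, and at or below percentile 20 it was 1.499% to 2.18%.

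Being found in all 4 lists did not mean ranking alike in them. Across a member's 4 best peaks, the highest percentile exceeded the lowest by 50.5 points at the median, and by more than 50 points in 359 members (50.8%). Only 37 members (5.23%) lay above percentile 90 in every list, 175 (24.8%) lay above 50 in every list, and 508 (71.9%) lay above 50 in some lists and at or below it in others. Spearman's rho of percentiles over the 707 members, which share libraries and positions, was 0.268 between the WT lists, 0.315 between the CKO lists and 0.182 to 0.367 for the 4 pairs of different genotype. For peak width rho was 0.675 for WT, 0.708 for CKO and 0.654 to 0.721 for the mixed pairs. The best peaks of a pair of lists overlapped in 641 to 679 of the 707 members. In the remaining members the values compare peaks at different positions.

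**Figure D1:**
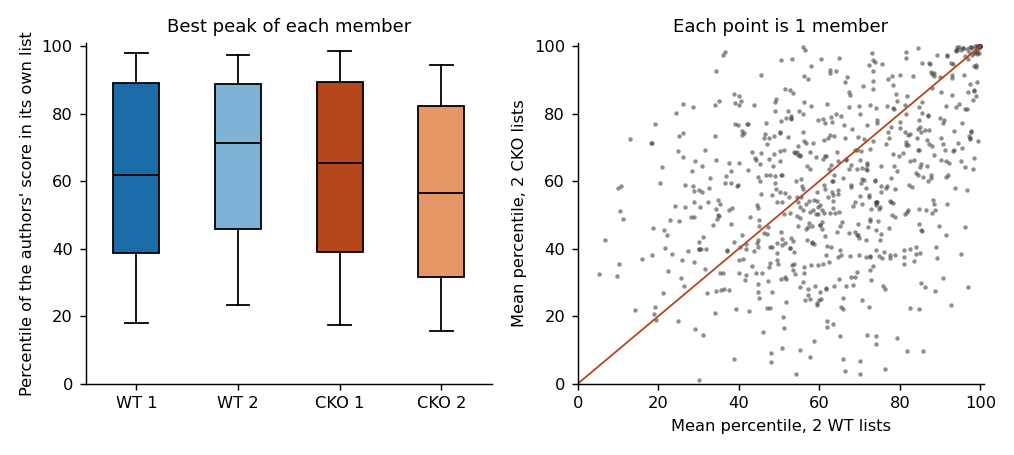
Left, within-list percentile of the authors' score for the best peak of each of the 707 members, by list (line, median; box, 25th to 75th percentile; whiskers, 10th to 90th percentile). Right, the mean percentile of each member in the 2 WT lists (x axis) and the 2 CKO lists (y axis) with the line of equality; the medians run from 56.4 in CKO 2 to 71.3 in WT 2 and the points scatter widely about the line.

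The members with the highest mean percentile, which are high in every list by that choice, were these. The first was chr5:142890282-142890537, minus strand, at percentile 100.0 of WT 1, 99.96 of WT 2 and 100.0 of both CKO lists, with peaks of 251, 212, 256 and 249 bases. A second strong member, chr5:142891105-142891231, lay 567 bases from it on the same strand, and there all 4 lists gave the same 127 bases. The others of the first 10 by mean percentile were chr8:123151637-123151826 (minus), chr19:9961545-9961584 (plus), chr9:40715461-40715659 (plus), chr7:126396840-126396864 (plus), chr11:23317339-23317466 (plus), chr4:43554304-43554338 (minus), chr5:113957333-113957627 (minus) and chr12:33299850-33300574 (plus). No percentile of these 10 was below 99.31, the value of the chr5:113957333 member in WT 2. They were 25 to 725 bases wide, and 8 of the 10 had an edge common to all 4 lists. The 37 members above percentile 90 in every list lay on 14 chromosomes, and all 37 had a common core. Their median core was 196 bases against 44 in the other 670 members, with a member that has none counted as 0. They were also wider, 340 against 214 bases at the median, and the core's share of the width was 60% against 26.8%. An edge was common to all 4 lists about as often, in 54.1% against 54.5%.

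Peaks in members were wider than peaks that no other list met, measured on each list's own peaks and not on the merged region. The median width of a peak in a member was 146 bases in WT 1, 175.5 in WT 2, 163.5 in CKO 1 and 167 in CKO 2, against 112, 100, 115 and 116 bases for peaks in regions of 1 list. The mean difference was 52.3 ± 17.2 bases (SD, n = 4 lists). For the regions of 3 lists that remain when 1 list is left out, a larger set, it was 29.3 without WT 1, 40.8 without WT 2, 23 without CKO 1 and 19.7 without CKO 2. When peaks had to share 50% of the shorter one it was 19.6. Members had fewer peaks of exactly 200 bases, the most frequent width (14.7% ± 6.97 against 23.5% ± 10.1), and more peaks above it (29.4% ± 8.75 against 9.13% ± 5.18; SD, n = 4). A wider peak meets other peaks more often by construction, so no test was made.

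**Figure D2:**
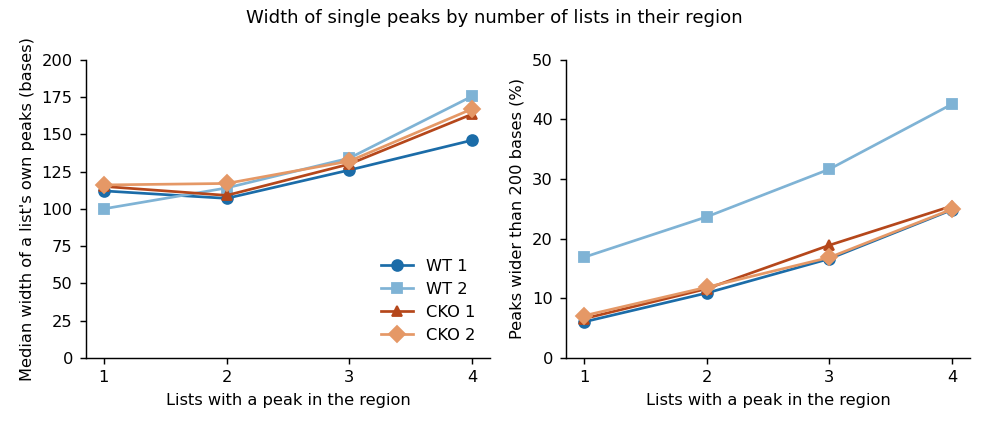
Median width in bases (left) and share wider than 200 bases (right) of each list's own peaks, by the number of lists that hold a peak in the region (x axis). All 4 lines are higher at 4 lists than at 1 list; WT 2 (light blue squares) has the most peaks over 200 bases at each position, 42.6% at 4 lists.

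Membership was more frequent among peaks over 200 bases than among the rest. Of peaks under 50 bases, 1.83% to 2.27% lay in members, and peaks of 50 to 199 bases and of exactly 200 bases did so in 2.40% to 2.80% and 1.84% to 2.43%. For peaks of 201 to 400 bases the share was 4.96% to 6.34%, and above 400 bases 9.51% to 11.5%. Below 200 bases and at 200 bases the shares differed little, with under 50 bases above 200 bases in WT 1 and CKO 1 and below it in WT 2 and CKO 2.

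Merged members were 217 bases long at the median (25th to 75th percentile 120 to 454), against 110 bases (52 to 200) for regions of 1 list. Without WT 2 the regions of 3 lists were 195 bases long, and without WT 1, CKO 1 or CKO 2 they were 182.5, 171 and 168. A merged region spans all its peaks, so the greater length of members follows from the merging. The widest was chr9:72655111-72656770, plus strand, 1660 bases long, where WT 2 had a peak of 1460 bases and the other lists had peaks of 200 to 295 bases with no base common to all. The next were chr17:5045214-5046759 (plus, 1546 bases, 10 peaks), chr2:35070920-35072459 (minus, 1540 bases, 9 peaks), chr11:79406138-79407588 (minus, 1451 bases) and chr3:133172297-133173658 (minus, 1362 bases, 8 peaks). At the other end, all 4 lists gave the same 4 bases at chr11:5021639-5021642 and at chr16:31861992-31861995, both on the minus strand, and the same 8 bases at chr15:58809201-58809208, plus strand. The 3 members of 10 bases lay at chr11:16458104-16458113 and chr6:87810657-87810666, both on the minus strand, and at chr4:132273948-132273957 on the plus strand, where all 4 lists gave the same bases. The ranks of these tiny peaks varied widely: the first stood at percentile 14.9 (WT 1), 97.6 (WT 2), 45.3 (CKO 1) and 23.7 (CKO 2).

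The sharpest feature of the members was an edge on which the lists agreed to the base. In 385 of 707 members (54.5%, Wilson interval 50.8% to 58.1%) peaks of all 4 lists began or ended at the same base, in 95 peaks of 3 lists did, in 106 peaks of 2 lists did, and in 121 (17.1%) no edge was shared. The rule asked only for overlap and not for a shared edge. It was also common among other regions: both lists shared an edge in 72.4% of regions of 2 lists, and all 3 lists did in 62.5% of regions of 3 lists. A common edge is thus not particular to regions of 4 lists.

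The shared edge lay on the 5′ side. Read in the direction of the strand that the lists give, the 5′ edge was common to all 4 lists in 358 members (50.6%, 47.0% to 54.3%) and the 3′ edge in 47 (6.65%, 5.04% to 8.73%); 20 members had both. Counted by chromosome coordinate the sides were even, with 206 members sharing the start and 199 the end. The asymmetry appeared on both strands: the 5′ and 3′ edges were common in 185 and 26 of 351 plus-strand members, and in 173 and 21 of 356 minus-strand members. Regions of 2 lists showed it too (67.0% and 15.8%), as did regions of 3 lists (59.3% and 7.08%). Without WT 2, all 3 lists met at the 5′ edge in 52.8% of regions and at the 3′ edge in 7.76%, a difference of 45.1 points against 44.0 points with it. Without WT 1, CKO 1 or CKO 2 the 5′ shares were 58.2%, 59.2% and 61.2%, and the 3′ shares 8.51%, 7.69% and 7.51%.

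**Figure D3:**
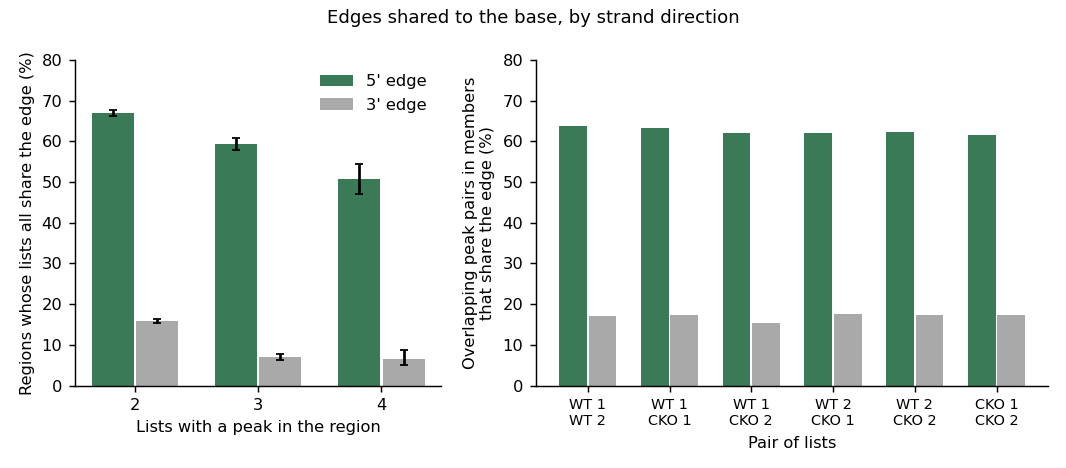
Left, share of regions in which every list that holds the region has a peak with the same 5′ edge (green) or the same 3′ edge (grey), by number of lists, with 95% Wilson intervals. Right, share of overlapping best-peak pairs within members that have the 5′ or 3′ edge in common, for each of the 6 pairs of lists; the green bars lie between 61.6% and 63.6% and the grey bars between 15.3% and 17.7%.

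The edge was common about as often between genotypes as within them. Among members whose best peaks overlap in both lists of a pair, the 5′ edge was the same base in 63.6% for the WT pair, 61.6% for the CKO pair and 61.9% to 63.3% for the 4 mixed pairs. The 3′ edge was the same in 17.1%, 17.4% and 15.3% to 17.7%. The median distance between 2 peaks' 5′ edges was 0 bases in all 6 pairs, and between their 3′ edges 27 to 38 bases.

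Shared edges were most frequent in peaks below 200 bases. Of member peaks under 200 bases, 97.6% to 99.0% in the 4 lists had an edge in common with a peak of another list, on the 5′ side in 91.0% to 95.3% and on the 3′ side in 34.9% to 38.2%. Of member peaks of exactly 200 bases, 17.9% to 34.4% had one, with the highest value in WT 2, where only 32 such peaks lay in members. On the 5′ and 3′ side these were 10.0% to 31.3% and 13.2% to 28.1%. Of member peaks over 200 bases, 41.5% to 51.1% had a shared edge. The 5′ side was also the more frequent there in all 4 lists, with 31.7% to 40.8% against 14.9% to 18.1%. In the regions of 3 lists without WT 2 these shares were 96.5% to 97.5% under 200 bases, 13.1% to 13.4% at 200 bases and 33.4% to 40.5% above. With peaks under 200 bases left out before merging, 226 members remained. The share with the 5′ edge common to all 4 lists then exceeded that for the 3′ edge by 2.21 points. The sources used here do not say how the lists were restricted to mRNA, and the part of that step in these edges was not tested.

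In the members with the 5′ edge alone common to all lists, the peaks reached different distances from it. For the 326 of these with 1 peak per list, the narrowest peak was 51.5 bases wide at the median and the widest exceeded it by 68.5 bases (25th to 75th percentile 25.3 to 115); without WT 2, over 932 regions, these medians were 49 and 56.5 bases. Their median peak width was 79 bases in WT 1, 98 in WT 2, 90 in CKO 1 and 90.5 in CKO 2. At chr8:123151637-123151826, minus strand, where the percentiles were 99.98 (WT 1), 99.97 (WT 2), 99.98 (CKO 1) and 99.996 (CKO 2), peaks of 186, 187, 190 and 190 bases began at the same 5′ base. At chr19:9961545-9961584, plus strand, they were 24, 26, 39 and 40 bases long. Both edges of a peak were the same in all 4 lists at 20 members, 4 to 203 bases wide with a median of 53.5, and 19 of these were under 200 bases; without WT 2 the 3 lists gave the same interval at 72 of 1921 regions (3.75%). By mean percentile the first of the 20 were chr5:142891105-142891231, chr7:126396840-126396864 (25 bases), chr7:127084212-127084414 (plus, 203 bases), chr3:107923835-107923916 (minus, 82 bases) and chr13:96802621-96802732 (minus, 112 bases); the 20 were picked out after their values were seen.

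Members with a common edge differed in shape from the rest. Where all 4 lists met at an edge, members were 127 bases long at the median. They lay 1298 bases from the nearest other region on the same strand at the median. Those with no shared edge were 581 bases long and lay 369 bases from it. Without WT 2 the corresponding values were 117 and 1359.5 bases with an edge common to the 3 lists, and 429.5 and 452 bases with none. Their scores overlapped: the median of the mean percentile was 62.4 and 54.9. These groups were formed after the edges were seen, and carry no test.

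The distance to the nearest other region differed little between members and regions of 1 list, and by an amount that depends on how it is measured. The nearest other region on the same strand, of any kind, lay 947 bases from a member at the median (25th to 75th percentile 396 to 2548) and 1073 bases (380 to 3079) from a region of 1 list. Between midpoints, which do not shorten the distance of wide regions, the medians were 1177 and 1197.75 bases, a difference of -20.75 in place of -126 bases. Another region stood within 1000 bases of 51.9% of members (48.2% to 55.6%) and of 48.1% of regions of 1 list (47.7% to 48.6%). Within 5000 bases the shares were 87.8% (85.2% to 90.04%) and 83.1% (82.7% to 83.4%), with 85.6% for regions of 2 lists and 86.3% for regions of 3. Both classes had 2 other regions within 5000 bases at the median. Since the positions come from the same peaks as the rule, these are descriptions; the gap turned to 27 bases longer for members when peaks had to share 50% of the shorter one to be joined.

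**Figure D4:**
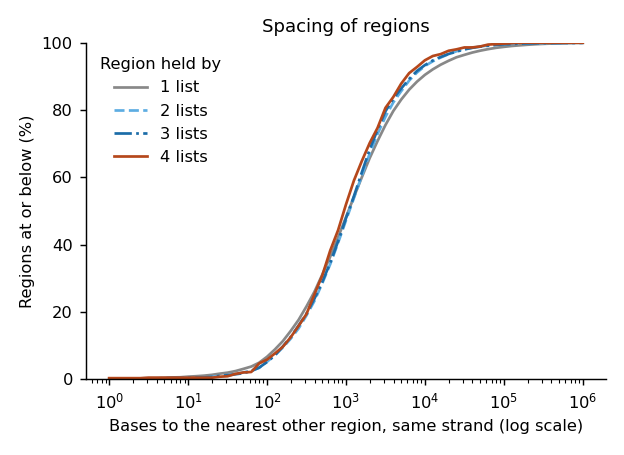
Share of regions (y axis) whose nearest other region on the same strand lies at or below a given number of bases (x axis, log scale), for regions held by 1, 2, 3 or 4 lists. The curves run close together, with medians of 1073 bases for 1 list and 947 bases for 4 lists.

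The small difference in gap depended on width. Among regions of 100 to 199 bases, members lay nearer to another region than regions of 1 list did (1240 and 1459 bases). Among regions of 200 to 299 bases they lay farther from one (1008.5 and 505 bases), and likewise at 300 to 499 bases (621 and 377 bases). The share with another region within 5000 bases depended on width too. At 50 to 99 bases it was 85.1% for members and 81.1% for regions of 1 list, and at 100 to 199 bases 87.6% and 80.8%. At 200 to 299 bases it was 85.7% and 86.0%, and at 300 to 499 bases 86.7% and 88.5%. Measured within each list alone, from a peak to the next peak of the same list and strand, member peaks lay nearer in all 4 lists: 2187, 3594, 2440.5 and 3138.5 bases at the median (WT 1, WT 2, CKO 1, CKO 2), against 3425, 4326, 3511.5 and 3811 for peaks in regions of 1 list. The mean difference was -928 ± 271 bases (SD, n = 4 lists). Member peaks are wider, and some members hold more than 1 peak of a list. Both can shorten this distance, and no value between midpoints or at like width is given for it.

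Most members had no other member near them. Of 707 members, 40 (5.66%, 4.18% to 7.61%) had another member within 5000 bases on the same strand and 70 (9.90%) within 20000 bases. The median distance to the next member was 1109135 bases. A member had 2.87 other regions of any kind within 5000 bases on average, and 0.963% of all regions were members. No share expected from these values was computed, so the 5.66% does not say whether members cluster. Without WT 2, regions of the other 3 lists numbered 1921 and 13.4% of them had another within 5000 bases. Chained across gaps of up to 5000 bases, members formed 667 single regions and 20 pairs, and no group held more than 2. The pairs lay 74 to 4823 bases apart. Ranked by mean percentile, the first was the chr5 pair at 142890282 to 142891231. It was followed by chr11:46098238-46098308 with chr11:46099124-46099187 (minus, 815 bases apart), and chr11:23317339-23317466 with chr11:23320239-23320354 (plus, 2772 bases). Then came chr2:75492831-75492920 with chr2:75495372-75495494 (plus, 2451 bases) and chr15:84828496-84828755 with chr15:84833154-84833479 (minus, 4398 bases). In all 5 pairs both members lie on the same strand by construction. Of these 10 members, 6 had an edge common to all 4 lists, near the 54.5% of all members.

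What surrounded a member was a run of regions from fewer lists. Regions of any kind, chained across 5000 bases, formed 26285 loci, of which 681 (2.59%) held a member: 656 held 1, 24 held 2 and 1 held 3. A member's locus had 5 regions at the median and that of a region of 1 list 4; a locus with more regions has more chances to hold a member. The share of regions that were members was 0.728% (0.590% to 0.898%) where a region stood alone, 0.983% in loci of 2 to 3 regions, 0.924% in loci of 4 to 6, 1.11% (0.963% to 1.28%) in loci of 7 to 12 and 1.07% in loci of 13 or more, with no steady rise. Alone in their locus were 86 members (12.2%) and 16.9% of regions of 1 list. The most isolated members, counting regions on the same strand only, were these. They were chr17:46008974-46009173, plus strand, 134976 bases from the nearest other region, chr6:86502433-86502933, minus strand, at 121729 bases, and chr5:140509303-140510229, plus strand, at 80351 bases.

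Within loci of 3 or more regions, members took no particular place. They were the most 5′ region in 17.6% (14.6% to 21.1%) and the most 3′ region in 18.7% (15.6% to 22.3%), where the number of regions per locus alone gives 17.8%. For regions of 1 list the shares were 17.9% and 18.6%. On the opposite strand, a region within 5000 bases was found for 6.36% of members and 7.86% of regions of 1 list.

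To read such regions in a list that had no part in choosing them, the merging was repeated with each list left out in turn. Regions of all 3 other lists carried a peak of the list left out in 40.0% (WT 1), 34.4% (WT 2), 40.1% (CKO 1) and 35.2% (CKO 2) of cases, and regions of 1 of the 3 other lists in 20.05%, 18.97%, 19.8% and 17.6%. The difference was 18.3 ± 2.28 percentage points (SD, n = 4) and had the same direction for 4 of 4 lists. An exact two-sided sign permutation test gave p = 0.125, the smallest it can give with 4 values, and the 4 values share lists. The test took no account of width, and a wider region meets more peaks by construction. In the merging of all 4 lists, regions of 3 lists were 168 bases long at the median and regions of 1 list 110. Among regions of 100 to 200 bases, a width class chosen after seeing the data, the shares were 36.0% ± 2.47 and 17.6% ± 1.23, and by bases covered they were 22.8% ± 1.21 and 14.1% ± 0.695 (SD, n = 4).

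**Figure D5:**
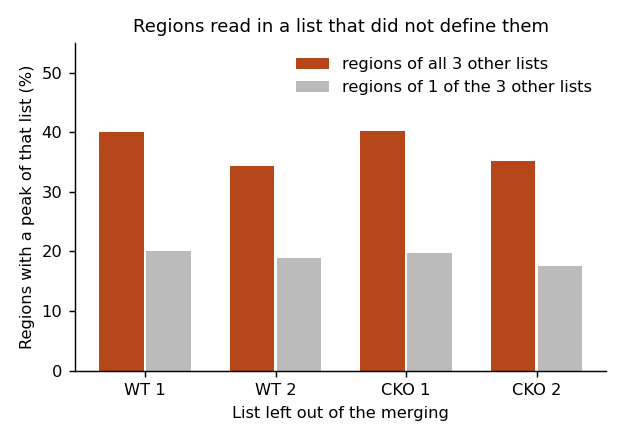
Share of regions that carry a peak of the list left out of the merging (x axis), for regions of all 3 other lists (red) and regions of 1 of the 3 (grey). The red bars stand at 34.4% to 40.1% and the grey bars at 17.6% to 20.05%, and each red bar is above its grey bar.

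The peaks met in regions of 3 lists ranked higher and were wider in their own list than those met in regions of 1 list. The median percentiles were 56.2 to 71.9 and 51.7 to 55.2. The median widths were 154 ± 8.53 and 114 ± 4.76 bases (SD, n = 4), and both measures were higher for 4 of 4 lists. A region of 3 lists that meets a peak of the list left out is part of a member. The peaks met there are therefore the member peaks described above, and a wider peak meets others more often by construction, so no test is given. Where 3 lists shared an edge to the base and the list left out had a peak there, its peak met that same edge in 92.3% to 97.5% of regions (385 of 395 to 417). These 385 are the members with an edge common to all 4 lists, the same set for each list left out. The shares are therefore not separate from the count of common edges given above. A peak of the list left out was present in 33.0% to 38.8% of regions with the edge and in 32.0% to 44.0% of those without, higher without it for WT 1, CKO 1 and CKO 2 and lower for WT 2.

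The difference between WT and CKO lists in the members was within the spread between lists. The median percentile of members was 66.6 ± 6.60 for the WT lists against 60.9 ± 6.34 for the CKO lists (SD, n = 2 per genotype), a difference of 5.69 points (exact two-sided permutation p = 0.667, adjusted p = 1.0 over 3 comparisons). The median width of the best peak was 142 bases in WT 1, 171 in WT 2, 154 in CKO 1 and 160 in CKO 2, with genotype means of 156.5 and 157 (exact p = 1.0). The WT lists had 737 and 726 peaks in members and the CKO lists 738 and 722 (exact p = 1.0). The rule asks for a peak of every list in each of the 707 members. The peak counts could therefore differ only in further peaks, and their likeness says little about genotype. Without WT 2, in the regions of the other 3 lists, WT minus CKO was 1.14 percentile points and -8 bases. In each measure the groups overlapped, and a test of 2 lists against 2 cannot go below 0.333.

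Single members that separated the genotypes by rank were about as frequent as loci that did so. Both WT lists ranked above both CKO lists in 144 members (20.4%) and below both in 95 (13.4%). Among all 4800 loci with peaks of all 4 lists, taking the best peak per list and locus, the corresponding shares were 18.9% and 14.8%. These loci include those of the members. The counts are therefore no result about the members. The widest margins, picked for their size and carrying no test, were as follows. At chr4:34805447-34805890, minus strand, the percentiles were 79.7 and 84.1 in WT and 8.99 and 10.4 in CKO. At chr17:41254698-41254853, plus strand, they were 84.4 and 68.2 against 7.03 and 1.95, and at chr9:58164304-58164487, plus strand, 74.6 and 65.4 against 0.865 and 4.86. In the other direction, chr2:150610785-150610835, plus strand, stood at 25.4 and 26.9 in WT and 82.5 and 83.1 in CKO. The members at chr5:31314166-31315111 (16.5 and 9.70 against 78.1 and 66.7) and chr18:24024035-24024599, plus strand (52.8 and 20.1 against 97.5 and 99.0), came next. Neither of these last members, nor the one on chromosome 4, had a base common to all 4 lists, so their ranks compare peaks at partly different positions.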

How the data were processed

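The 4 acRIP-seq peak lists were each made from 1 IP library and its input and were matched to samples by the library code in the titles. The submitters' processing notes name MACS2 2.2.7.1, fastp 0.20.1 and STAR 2.7.8a, with mm39 (GRCm39) as the build. Peaks are of IP against input from MACS2, per the labels, and carry their library's code in their names, so calling was by library. The deposited score is the authors' own value per peak; which MACS2 quantity it is, and how strand and the restriction to mRNA were set, the sources used here do not say. Scores served only as percentiles within a list. Files were read as BED (counting from 0) and positions are printed counting from 1.

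Peaks were merged, and widths, edges, gaps and chains were computed, with Python 3.11.15, numpy 2.4.6, pandas 2.3.3 and scipy 1.17.1; the merging, gaps, chaining and held-out reading were tested on simulated lists. Genotypes were compared by exact two-sided permutation with Benjamini-Hochberg adjustment over 3 comparisons, and held-out lists by an exact sign permutation test. Intervals are 95% Wilson intervals and cover counting error over regions only. The members and measures were chosen with earlier results of these data known. Named regions are the 10 highest by mean percentile, 5 groups of members (all groups of 2 tie, so the highest mean percentile decided), the 5 widest, the 5 narrowest (3 members tie at 10 bases, and all are given), the 3 most isolated, the 3 with the fewest linking bases and the 3 nearest misses; others are said to be picked by value. Only a GRCm38.p6 gene table was on hand, so gene lists, gene positions, cell type markers and sequences, though planned, were not analysed. Alternatives changed the merging, the peaks kept, the overlap, the distance measure (gap or midpoints) and the lists used; the shape of regions with each list left out was added after seeing the data.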

Additional observations from a re-analysis of the deposited data

Results flagged for a closer look

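Regions with a peak in all 4 lists were also found outside chromosomes 1 to 19. Chromosome X had 16 of 1960 regions (0.816%), a share within the range of the 19 chromosomes described above. The mitochondrial chromosome had 4 of 10 regions (40%). Of the 2 regions on chromosome Y none was held by all 4 lists, which with 2 regions says little. These regions were left out of the members by the rule, and none of the comparisons uses them.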

How the results depend on the processing

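The measures kept their direction under the alternatives run, except the gap to the nearest region and the genotype differences in width and peak number. Classes of region width were not among these alternatives. In the classes from 200 to 499 bases the share with a region within 5000 bases was not higher for members. Keeping only peaks of 200 bases or more left 226 members, and keeping the 50% of each list with the highest scores left 173. With 1 list left out, regions of all 3 others numbered 1716 to 1958. The gap difference, members minus regions of 1 list, was -126 bases. It became -20.75 between midpoints, -803 for the upper 50% of scores, turned to 27 when 50% of the shorter peak had to be shared, and was -202 to -76.5 with 1 list left out. The difference in the share with a region within 5000 bases, 4.76 points, became 2.96 with peaks of 200 bases or more, 2.97 within 20000 bases and 2.82 to 4.83 with 1 list left out. The width difference of 52.3 bases became 81.1 when peaks were merged across gaps of 100 bases, 23 with peaks of 200 bases or more, 19.6 under the 50% overlap and 19.7 to 40.8 with 1 list left out. The share of members near another member, 5.66%, became 2.65% with peaks of 200 bases or more, 9.25% for the upper 50%, 1.70% within 1000 bases, 9.90% within 20000 bases and 7.98% to 13.4% with 1 list left out. The excess of the common 5′ edge over the 3′ edge, 44.0 points and chosen after seeing the data, became 37.8 with gaps of 100 bases merged, 2.21 with peaks of 200 bases or more, 49.4 under the 50% overlap and 45.1 to 53.7 with 1 list left out. The cause of these changes was not tested.

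WT minus CKO in width, -0.5 bases, turned to 47.75 with peaks of 200 bases or more (exact p = 0.333, the smallest that 2 against 2 can give) and to 5.25 under the 50% overlap, and ran from -8 to 16 with 1 list left out. In peak number, 1.5, it turned to -2.5 with peaks of 200 bases or more and to -1 with equal numbers of peaks per list, and ran from -16.5 to 12 with 1 list left out. The percentile difference stayed above 0, between 1.14 and 11.0, and the difference read in the list left out between 8.76 and 22.0 points. With the replicate number as a block, the differences for replicates 1 and 2 were -3.46 and 14.8 percentile points (mean 5.69), -12 and 11 bases (mean -0.5), and -1 and 4 peaks (mean 1.5). Nothing in the labels says that the numbers pair the lists. Joining peaks of the same name was not run because no name repeats within a list. The depth is unknown, so how far it limits the number of members could not be measured.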
